A study of Mus musculus with 8 samples.

Results

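The genes described here control the first gap phase of the cell cycle, G1, and the step from G1 into DNA synthesis: 3 D-type cyclins (Ccnd1, Ccnd2, Ccnd3), the kinases they activate (Cdk4, Cdk6), 3 inhibitors of G1 kinases (Cdkn1b, Cdkn2c, Cdkn2d), the transcription factor E2f1 and the retinoblastoma gene Rb1. These 10 genes were chosen by name, out of 17097 genes with a probe set that the platform annotation assigns to a single gene symbol. A probe set is a group of array probes for the same transcript. For each gene the probe set brightest on average across the 8 arrays was read. The 10 genes have 25 such probe sets in all.

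D-type cyclins bind CDK4 or CDK6, and these kinases phosphorylate the retinoblastoma protein, which then releases E2F transcription factors that turn on genes for DNA synthesis. INK4 proteins (among them those of Cdkn2c and Cdkn2d) bind CDK4 and CDK6 and block cyclin D, whereas p27, the product of Cdkn1b, restrains cyclin E with CDK2 and is controlled to a large extent by protein degradation. Blood cells depend mainly on Ccnd2, Ccnd3 and Cdk6 for this step, and cytokines such as IL-3 feed into it.

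The data are 8 Affymetrix mouse arrays of total RNA, of which 4 carry the label Trib1 hi (here hi-labelled) and the other 4 the label Trib1 null (null-labelled). All are acute myeloid leukaemia (AML) lines labelled as expressing the homeobox gene Hoxa9, and derive from leukaemia of mice with both copies of Trib1 knocked out; the hi-labelled arrays hold cells labelled as also expressing Trib1, a pseudokinase that lowers C/EBP alpha protein through the ligase COP1. All cells were grown untreated, in IMDM medium with IL-3 at 5 ng/ml and 10% serum. The labels do not say whether a group is 1 clone or whether its arrays come from separate cultures, so the p-values reflect only the spread among these samples, and that spread may be technical.

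The values are linear signals of MAS5, Affymetrix's summary of a probe set, and were compared as log2(signal + 2.71) with limma over 12250 genes, with p-values adjusted over all of them by the Benjamini-Hochberg method and a threshold of 0.05. Between 17.7% and 23.2% of probe sets exceeded 500 on an array. Below that level the arrays differed within groups as well as between them: the 75th percentile ran from 15.5 to 422 and was highest on Trib1 hi 3, which also had the lowest 90th percentile (1808, against up to 1985). A fold below is the ratio of group means after signals below 500 were set to 500; it is written "at least" where a group had arrays below 500, and it is not given where both had. The brighter Trib1 probe set read 7.13, 7.13, 122 and 5.92 on hi-labelled arrays 1 to 4, and 304, 223, 212 and 206 on null-labelled arrays 1 to 4. These values go against the labels but all lie below 500, and whether the probe set covers introduced or deleted sequence is not known here, so groups are named by their labels throughout. Hoxa9, named for both groups in the source labels, read 14.3, 14.3, 391 and 10.03 on hi-labelled arrays 1 to 4 and 969 to 1075 on the null-labelled ones, at least 2.05-fold lower (adjusted p = 5.15e-06); the hi-labelled values go against that label, with the same limit on what the probe set covers. An added control transcript, dap, was lower in the hi-labelled arrays, by -0.50 to -1.26 on the log2 scale over its 6 probe sets, at group means from 329 to 2963. Other added controls had overlapping groups: bioD and cre differed by 0.01 to 0.16 over their 8 probe sets, bioC by -0.34 to 0.20 over 4, and bioB, below 500 in group mean, by -2.54 to 0.21 over 6. The controls thr, phe and lys also lay below 500 in group mean with overlapping groups. They differed by -3.23 to -0.06, by -2.82 to 0.05 and by -1.88 to 0.44. The 12 myeloid markers checked exceeded 500 on some array each, but the groups were not alike in them. In the hi-labelled arrays 3 rose and 4 fell, beside 11.1% and 19.7% of all genes tested. Mpo rose at least 10.4-fold (5201 ± 755 against 2.92 ± 0.79) and Elane 5.55-fold, while Itgam fell 3.09-fold and Cd33 at least 2.88-fold. Whether these have a part in the differences below was not tested. The 5 erythroid and 7 lymphocyte markers measured lay below 500 on every array. Of 8 markers of fibroblasts and endothelium, 7 did so too. Of 8 mast cell and basophil markers, Cpa3 rose 17-fold, Mcpt8 fell 1.73-fold (2872 ± 219.8 against 4980.4 ± 321, adjusted p = 2.23e-08), Hdc did not pass and 5 lay below 500 on every array. Their summed signal, 21282 to 29708 against 6363 to 6965, is mostly that of Cpa3 (23607 against 1385 on average); whether this has a part in the differences below was not tested.

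Of the 10 genes, 3 rose and 5 fell in the hi-labelled arrays, and 2 did not pass the test. Ccnd2 and Cdk4 rose, Ccnd3 and the inhibitors Cdkn1b, Cdkn2c and Cdkn2d fell, and these 6 had no overlap between the groups. Cdk6 and E2f1 passed narrowly and their groups overlapped. Rb1 and Ccnd1 did not pass. Of all 12250 genes tested, 30.8% were called (11.1% higher and 19.7% lower), and 29.3% had no overlap between the groups. Signal level matters for this share: of the 4465 genes over 500 on all 8 arrays, as 7 of the 10 are, 51.7% were called (25.9% higher and 25.8% lower) and 50.7% had no overlap.

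**Figure D1:**
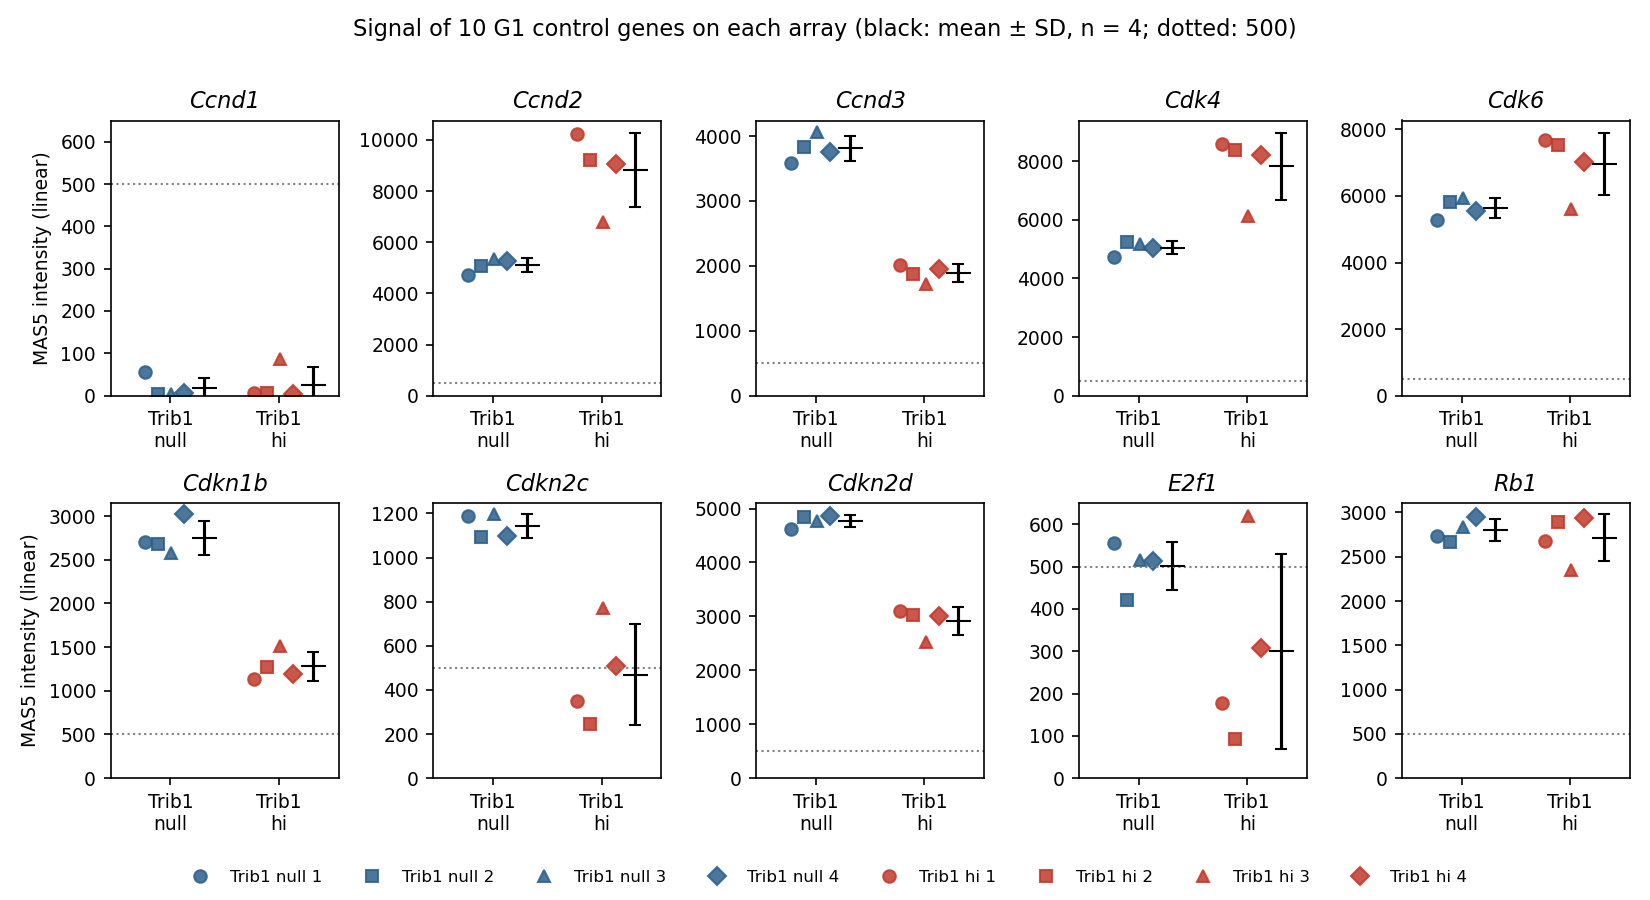
Linear MAS5 signal (vertical axis) of the brightest probe set of each of the 10 genes on the 4 null-labelled arrays (blue) and the 4 labelled Trib1 hi (red); the symbol gives the array number, black marks the mean and SD (cut at 0 for Ccnd1), and the dotted line is 500. Ccnd2 and Cdk4 lie higher and Ccnd3, Cdkn1b, Cdkn2c and Cdkn2d lower on every hi-labelled array, and the triangle of Trib1 hi 3 is the lowest or highest of its group in each panel.

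The D-type cyclins changed in opposite directions. Ccnd2, the cyclin D that growth factors and cytokines induce in blood cells, read 10232, 9207, 6793 and 9041 on hi-labelled arrays 1 to 4, and 4724, 5071, 5334 and 5253 on null-labelled arrays 1 to 4. Every hi-labelled array exceeded every other array, Trib1 hi 3 by the least. The means were 8818 ± 1449 against 5096 ± 271 (SD, n = 4), a 1.73-fold rise (log2 difference 0.78 ± 0.11 SE, limma adjusted p = 9.29e-07). The other 3 Ccnd2 probe sets over 500 on all arrays rose 1.74-fold to 1.79-fold, also without overlap.

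Ccnd3, the cyclin D used by maturing blood cells, read 2019, 1876, 1714 and 1951 on hi-labelled arrays 1 to 4, and 3583, 3831, 4062 and 3760.4 on null-labelled arrays 1 to 4. Its lowest signal in the null-labelled group was still well above the highest in the other group. It fell 2.02-fold, from 3809 ± 198 to 1890.1 ± 131 (log2 difference -1.01 ± 0.09 SE, limma adjusted p = 1.11e-10). The call ended when the log2 values of both Ccnd3 probe sets were averaged (log2 difference -0.47, adjusted p = 0.590); the second probe set was dim, with means of 13.9 and 10.7. Over all other alternatives the adjusted p was at most 3.94e-06.

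Ccnd1, the cyclin D of many solid tissues, was near the bottom of the scale. It read 6.49, 5.84, 87.1 and 5.07 on hi-labelled arrays 1 to 4, and 55.2, 4.91, 4.32 and 5.15 on null-labelled arrays 1 to 4. All 3 of its probe sets lay below 500 on every array, the groups overlapped, and no difference was detectable at this signal (log2 difference 0.29, 95% interval -2.18 to 2.77, adjusted p = 0.912).

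Ccnd3 lies on chromosome 17, where 284 of 633 tested genes (44.9%) fell and 18 (2.84%) rose, and a difference between the lines along that chromosome cannot be told apart here from one of the labels. Its neighbours, in the gene order of the mouse assembly GRCm38.p6, did not all move with it. On one side Bysl, a ribosome assembly factor that is the next tested gene, read 914 ± 76.0 against 749 ± 88.0 (adjusted p = 0.146), and Med20, a Mediator subunit, 1320.2 ± 97.7 against 1461 ± 124 (adjusted p = 0.395). Tomm6, of the mitochondrial import channel, fell 1.29-fold (adjusted p = 0.020). On the other side Taf8, a subunit of the general transcription factor TFIID, was called lower (adjusted p = 0.0362) with overlapping groups below 500, and AI661453 and 1700001C19Rik read below 100 on every array and did not pass.

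The partner kinase Cdk4 rose with Ccnd2. It read 8567, 8383, 6119.8 and 8201 on hi-labelled arrays 1 to 4, and 4739, 5237, 5164 and 5019 on null-labelled arrays 1 to 4. Again the groups did not overlap, and Trib1 hi 3 stood well below the other arrays of its group. The mean rose 1.55-fold, from 5039.9 ± 220.2 to 7818 ± 1142 (log2 difference 0.62 ± 0.11 SE, limma adjusted p = 1.87e-05). The name of this probe set marks it as one whose probes may match other transcripts, and the 2 other Cdk4 probe sets rose 1.61-fold and 1.72-fold without overlap.

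Cdk6, the main cyclin D kinase of blood stem and progenitor cells, differed less. It read 7678, 7523, 5617 and 7017 on hi-labelled arrays 1 to 4, and 5272, 5806, 5941 and 5539 on null-labelled arrays 1 to 4. Trib1 hi 3 fell among the arrays of the other group, while the other 3 hi-labelled arrays exceeded all of them. The rise was 1.23-fold (6959 ± 938 against 5639 ± 297, log2 difference 0.29 ± 0.10 SE, limma adjusted p = 0.0300). The call ended without filter (adjusted p = 0.0752) and without any of Trib1 hi 1, Trib1 hi 2, Trib1 hi 4, Trib1 null 1 or Trib1 null 4 (adjusted p = 0.0746 to 0.126), and without Trib1 hi 3 it was stronger (adjusted p = 0.000520). With the mean of all 3 probe sets the difference turned to -0.49 (adjusted p = 0.209). A second bright Cdk6 probe set was 1.21-fold higher and the third lay below 500.

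The promoters of these kinases are shown because a site known to bind the MYC and MAX proteins, the E-box CACGTG, is present in both, and repeated in that of Cdk4. RefSeq promoter windows of GRCm38.p6, from 250 bases before to 50 bases after a gene's start, were given for 7 of the 10 genes (not for Ccnd1, Ccnd2 and Rb1), with 9 windows in all. Capitals mark CACGTG, which reads the same on both strands; the window of the inhibitor Cdkn1b, which fell, is printed beside them and holds none of the motifs searched.
Cdk4 promoter, chr10:127063285-127063584, plus strand: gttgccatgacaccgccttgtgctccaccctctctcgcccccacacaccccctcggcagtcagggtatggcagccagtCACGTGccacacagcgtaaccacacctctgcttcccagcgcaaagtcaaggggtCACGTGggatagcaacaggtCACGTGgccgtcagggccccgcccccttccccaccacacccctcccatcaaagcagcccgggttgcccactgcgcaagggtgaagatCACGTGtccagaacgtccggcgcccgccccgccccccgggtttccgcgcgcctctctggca
Cdk6 promoter, chr5:3343643-3343942, plus strand: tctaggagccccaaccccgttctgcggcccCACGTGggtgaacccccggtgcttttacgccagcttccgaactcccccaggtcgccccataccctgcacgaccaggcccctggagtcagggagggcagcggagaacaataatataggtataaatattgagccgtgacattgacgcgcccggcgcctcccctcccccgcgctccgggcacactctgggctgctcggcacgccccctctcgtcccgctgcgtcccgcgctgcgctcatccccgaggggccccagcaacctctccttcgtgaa
Cdkn1b promoter, chr6:134920151-134920450, plus strand: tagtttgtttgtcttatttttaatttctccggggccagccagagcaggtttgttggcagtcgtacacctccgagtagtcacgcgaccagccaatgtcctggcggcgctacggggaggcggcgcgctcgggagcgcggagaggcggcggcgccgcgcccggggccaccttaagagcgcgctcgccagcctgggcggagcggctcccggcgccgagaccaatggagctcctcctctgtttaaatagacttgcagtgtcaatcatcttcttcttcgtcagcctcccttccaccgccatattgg
The Cdk4 window holds 4 copies, starting at its bases 79, 133, 153 and 240, and the Cdk6 window holds 1, at base 31. Of 32851 windows of the same length in the table, 7.15% hold this motif. Cdkn2c, which fell, has 1 copy in 1 of its 2 windows, so the motif occurred in windows of genes that rose and of a gene that fell. The E2F motif (TTTCCCGC, TTTCGCGC, TTTGCCGC or TTTGGCGC) and the STAT motif (TTCNNNGAA), searched on both strands and present in 2.26% and 8.3% of all windows, were in none (0) of the 9 windows; no match overlapped another. Each window covers a listed start, and sequence around any other start of these genes, E2f1 among them, was not searched. An absence here therefore does not show that a gene's promoter lacks the motif. Myc itself, the transcription factor whose protein binds E-boxes with MAX, read 6669 ± 1098 against 5482 ± 424 and did not pass the test (adjusted p = 0.0647).

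All 3 inhibitors fell. Cdkn1b, which encodes p27, read 1139, 1277, 1512 and 1193 on hi-labelled arrays 1 to 4, and 2701, 2682, 2579 and 3023 on null-labelled arrays 1 to 4. Even the highest value in the first group was far below the lowest in the second. The mean fell 2.14-fold, from 2746 ± 192 to 1281 ± 165 (log2 difference -1.11 ± 0.10 SE, limma adjusted p = 2.25e-10). The call ended with the mean of both probe sets (log2 difference -1.58, adjusted p = 0.0637), of which the second was dim, at 38.6 and 80.5.

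Cdkn2d, which encodes the INK4 protein p19, read 3103, 3028, 2533 and 3002 on hi-labelled arrays 1 to 4, and 4613, 4833, 4775 and 4863 on null-labelled arrays 1 to 4. The groups lay apart, and the arrays within the second group were close together. The fall was 1.64-fold, from 4771 ± 112 to 2917 ± 259 (log2 difference -0.71 ± 0.09 SE, limma adjusted p = 1.47e-07), and it kept its call under all 15 alternatives.

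Cdkn2c, which encodes the INK4 protein p18, a brake on stem cell division, read 350.2, 244, 771 and 507 on hi-labelled arrays 1 to 4, and 1187, 1094, 1197 and 1098 on null-labelled arrays 1 to 4. The groups did not overlap, but 2 hi-labelled arrays lay below 500. It fell at least 2.01-fold, with measured means of 468 ± 229 and 1144 ± 55.5 (log2 difference -1.41 ± 0.22 SE, limma adjusted p = 4.89e-06). The control dap was lower by -1.26 at means of 329 and 701 (overlapping groups), by -0.84 at 610 and 1073, by -0.68 at 1153 and 1850, and by -0.50 to -0.54 on its 3 other probe sets (null-labelled mean last). The differences of Cdkn2c, Cdkn1b, Ccnd3 and Cdkn2d were -1.41, -1.11, -1.01 and -0.71; whether what moved dap has a part in these decreases was not tested.

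**Figure D2:**
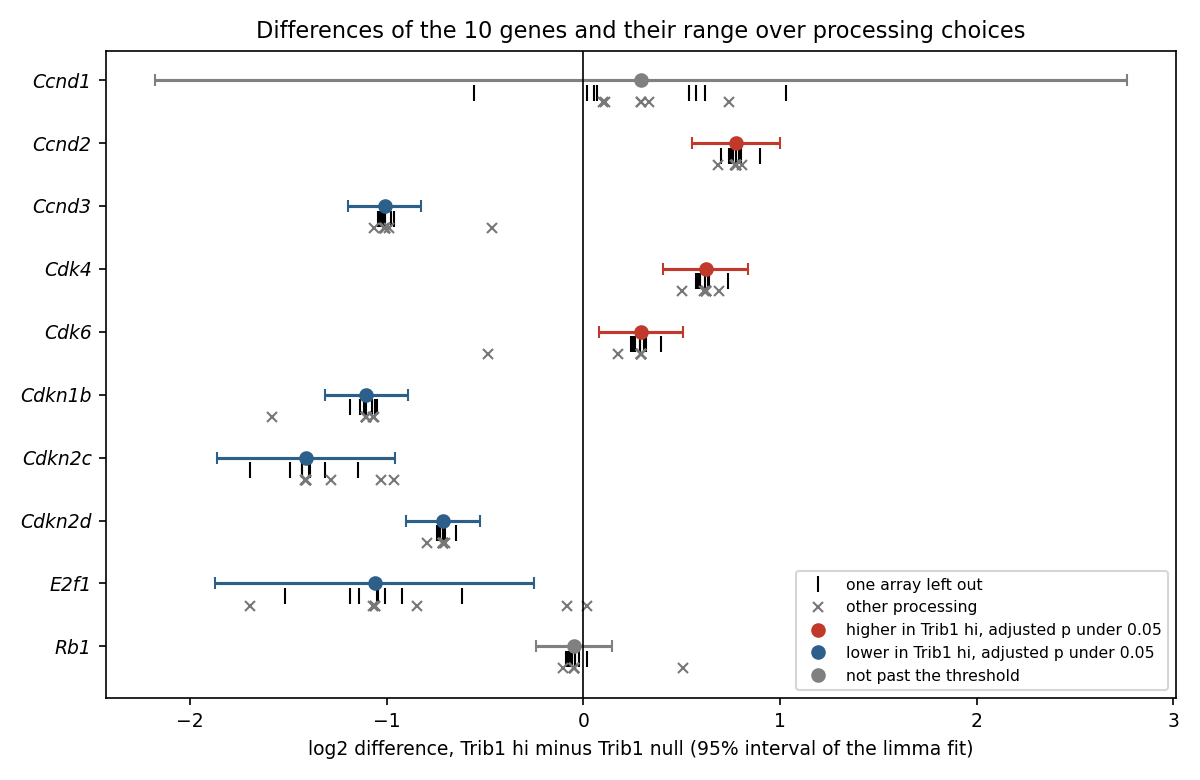
Log2 difference of each of the 10 genes between hi-labelled and null-labelled arrays (horizontal axis) with its 95% interval from limma; ticks below each gene give the value with 1 array left out and crosses the value under other processing. Ccnd2, Ccnd3, Cdk4 and the 3 inhibitors keep to one side of 0 throughout, while crosses of Cdk6 (-0.49) and E2f1 (0.02) lie on the other side.

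The inhibitors outside the 10 genes were read from a list of 5. Of 4 tested, 2 fell and 0 rose, with a median log2 difference of -0.24 against 0.04 over all genes tested. Cdkn2a, whose locus encodes the INK4 protein p16 and the p53 activator ARF and whose probe set is not assigned here to either transcript, fell at least 2.42-fold (382 ± 194 against 1289 ± 58.9, limma adjusted p = 5.20e-08). Cdkn1a, which encodes p21 and also lies on chromosome 17, fell 1.40-fold (3676 ± 448 against 5132 ± 236, adjusted p = 0.000161). Cdkn3, a phosphatase that acts on CDK2, read 1187 ± 131 against 1182 ± 32.8 (adjusted p = 0.999), and after quantile normalization it was called higher (log2 difference 0.14, adjusted p = 0.0412). Cdkn2b lay below 500 on every array, as did Cdkn1c, which was too dim to be tested. Of the 7 INK4 and CIP/KIP genes measured, 6 were tested and 5 of these fell, each without overlap between the groups. This set was added after the data were seen. It includes Cdkn1b, Cdkn2c and Cdkn2d and leaves out Cdkn3, which did not fall. Of all genes tested, 19.7% fell and 29.3% had no overlap. Of those over 500 on all 8 arrays, 25.8% fell and 50.7% had no overlap.

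Rb1 and E2f1, downstream of these kinases, were not compared with each other by a test. Rb1, the tumour suppressor that holds E2F factors in check, read 2681, 2890.1, 2349.7 and 2939 on hi-labelled arrays 1 to 4, and 2730.0, 2671, 2839 and 2952 on null-labelled arrays 1 to 4. The groups overlapped almost fully, with means of 2715 ± 268 and 2798 ± 124. The log2 difference was -0.05, with a 95% interval of -0.24 to 0.14 (adjusted p = 0.794), an interval from 0.847 to 1.10 as a ratio.

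E2f1, the activating E2F factor, read 177, 93.2, 619 and 308 on hi-labelled arrays 1 to 4, and 557, 420.2, 516 and 513 on null-labelled arrays 1 to 4. Trib1 hi 3 read highest of all 8 arrays and the other 3 of its group lowest. The fitted log2 difference was -1.06 ± 0.40 SE (limma adjusted p = 0.0404), at means of 299.5 ± 231 and 501 ± 57.7. Since both groups lay below 500 on some arrays no fold is given, and with signals below 500 set to 500 the difference was 0.02 (adjusted p = 0.869). The call also ended with a pseudocount of 64 (adjusted p = 0.0986), without filter (0.148), after quantile normalization (0.519), with the mean of probe sets (0.135) and without Trib1 hi 1 (0.131), Trib1 hi 2 (0.213) or Trib1 null 1 (0.0640).

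Relatives of Rb1 and E2f1 went both ways. Rbl2, which encodes the pocket protein p130 of resting cells, fell at least 3.20-fold (519 ± 144 against 1799 ± 95, limma adjusted p = 1.90e-11). E2f2, an activating E2F factor, fell 2.56-fold (727 ± 125 against 1862 ± 23.8, adjusted p = 1.31e-10), and Tfdp2, a dimer partner of E2F factors, rose 1.59-fold (1446 ± 158 against 909.9 ± 78.8, adjusted p = 5.37e-05). The Tfdp2 difference turned to -0.21 when its probe sets were averaged (adjusted p = 0.813). Of 14 tested genes of this family, 5 rose and 3 fell, with a median of 0.11, beside 11.1% and 19.7% of all genes tested. Of the 6 over 500 on all arrays, 3 rose and 1 fell, beside 25.9% and 25.8% of all genes at that level. After quantile normalization 8 of the 14 rose and 5 fell, and without Trib1 hi 3 it was 5 and 4. Both settings also called more of all 12250 genes: 3357 higher and 3352 lower, and 2103 higher and 3768 lower.

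**Figure D3:**
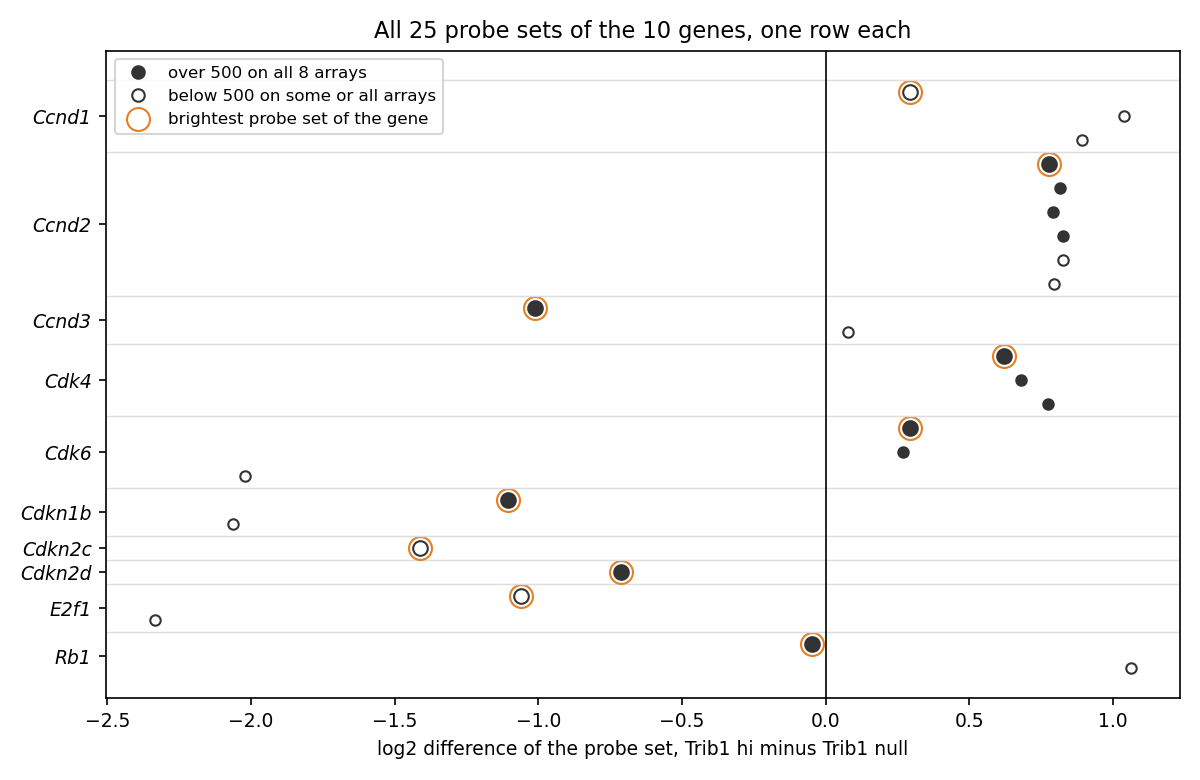
Log2 difference between hi-labelled and null-labelled arrays (horizontal axis) of all 25 probe sets of the 10 genes, 1 row each; filled points lie over 500 on all 8 arrays and orange rings mark the brightest probe set of a gene. The 4 filled points of Ccnd2, the 3 of Cdk4 and the 2 of Cdk6 lie close together, and the open points of dim probe sets scatter.

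Of the 25 probe sets of the 10 genes, 13 exceeded 500 on all arrays, and 6 of these were not the brightest of their gene. These 6, of Ccnd2, Cdk4 and Cdk6, had the same direction as the brightest, and the Cdk6 probe set among them did not pass when each probe set was tested on its own (limma adjusted p = 0.0521, over 19322 probe sets, of which 26.2% were called, 9.05% higher and 17.2% lower). The 9 other probe sets were below 500 on some or all arrays and none of them passed (adjusted p = 0.125 to 0.972). Cdkn2c and Cdkn2d had 1 probe set each.

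Whether genes of the same role changed unequally was tested by an exact two-sided permutation test over the 8 arrays of the difference between 2 genes' log2 signals, floored at 500, for 7 pairs. Ccnd2 and Ccnd3 moved apart by 1.79 on the log2 scale, and Cdk4 rose by 0.33 more than Cdk6, both without overlap between the groups. Both reached an exact permutation p = 0.0286, the smallest that 4 arrays against 4 allow, and so did the pairs of Ccnd1 with Ccnd2 and Ccnd3, in which Ccnd1 is constant at the floor. Adjusted over the 7 pairs this was 0.05, so 0 pairs passed the threshold, against 4 at an unadjusted p under 0.05. No pair could pass on its own. The adjusted value at the smallest p depends on how many pairs reach it, those with Ccnd1 included. Without Trib1 hi 3, 6 pairs passed (exact permutation, adjusted p = 0.0333). They include both pairs with Ccnd1, which show only the change of Ccnd2 or Ccnd3. Cdkn2c with Cdkn2d is also among them, although Cdkn2c was set to the floor on some hi-labelled arrays. Among the inhibitors, the falls of Cdkn1b and Cdkn2c differed by -0.07 (exact p = 0.571), those of Cdkn1b and Cdkn2d by -0.39 (exact p = 0.114) and those of Cdkn2c and Cdkn2d by -0.32 (exact p = 0.171), within the spread between arrays.

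Trib1 hi 3 was the lowest of its group for 6 of the 10 genes and the highest for the other 4. Without it, the differences were larger for Ccnd2 (0.90), Cdk4 (0.73), Cdk6 (0.39), Cdkn1b (-1.19), Cdkn2c (-1.69) and E2f1 (-1.52), and smaller for Ccnd3 (-0.97) and Cdkn2d (-0.65). The counts of genes called stayed at 3 higher and 5 lower.

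Further along the pathway come the cyclin E step and the genes of DNA synthesis. Of 10 tested genes for cyclin E, CDK2 and CDK activation, 3 rose and 0 fell (median 0.25), a share called near the 30.8% of all genes. Without Trib1 hi 3 the counts were 7 and 1, and after quantile normalization 5 and 0. More of all genes were called under both settings too, as given above. Ccne2, an E-type cyclin, rose 1.46-fold (1853 ± 77.3 against 1269 ± 92.6, limma adjusted p = 7.25e-05). Cdk7, the kinase that activates other CDKs, rose 1.5-fold (adjusted p = 1.18e-05), though its difference turned to -0.59 when its probe sets were averaged (adjusted p = 0.739), and its assembly factor Mnat1 rose at least 1.30-fold (adjusted p = 0.0271), whose call did not hold without any of Trib1 hi 1, Trib1 hi 4, Trib1 null 2 or Trib1 null 4, with a pseudocount of 64, with a floor of 500 or with the mean of probe sets (adjusted p = 0.0542 to 0.0824). Cdk2 itself read 3117 ± 411 against 2642 ± 65.7 (adjusted p = 0.0786), and Ccne1 lay below 500 on every array.

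Of 35 tested G1/S genes that E2F factors transcribe, 14 rose and 6 fell (median 0.19). Of the 29 over 500 on all arrays, 14 rose and 5 fell, beside 25.9% and 25.8% of all genes at that level. Mcm2, a subunit of the replicative helicase, rose 1.78-fold (3801 ± 447 against 2135 ± 253, limma adjusted p = 5.60e-08), and Hells, a chromatin remodeller, rose 1.75-fold (2797 ± 234 against 1595 ± 58.8, adjusted p = 3.18e-08, and 0.688 when its probe sets were averaged). Lig1, the ligase that joins Okazaki fragments, fell 1.65-fold (2016 ± 196 against 3333 ± 111, adjusted p = 1.42e-07). Of the 5 tested genes of all these lists on chromosome 17, 4 fell (Cdkn1a, Uhrf1, Msh6 and Ccnf) and Pim1 did not pass. Without Trib1 hi 3, 20 of the 35 rose and 7 fell. Over all 12250 genes this setting called 2103 higher and 3768 lower, against 1363 and 2409. After quantile normalization the list counts were 23 and 7, beside 3357 and 3352 of all genes. In bulk RNA, a change in the share of cells in a cycle phase and a change in RNA per cell cannot be told apart.

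**Figure D4:**
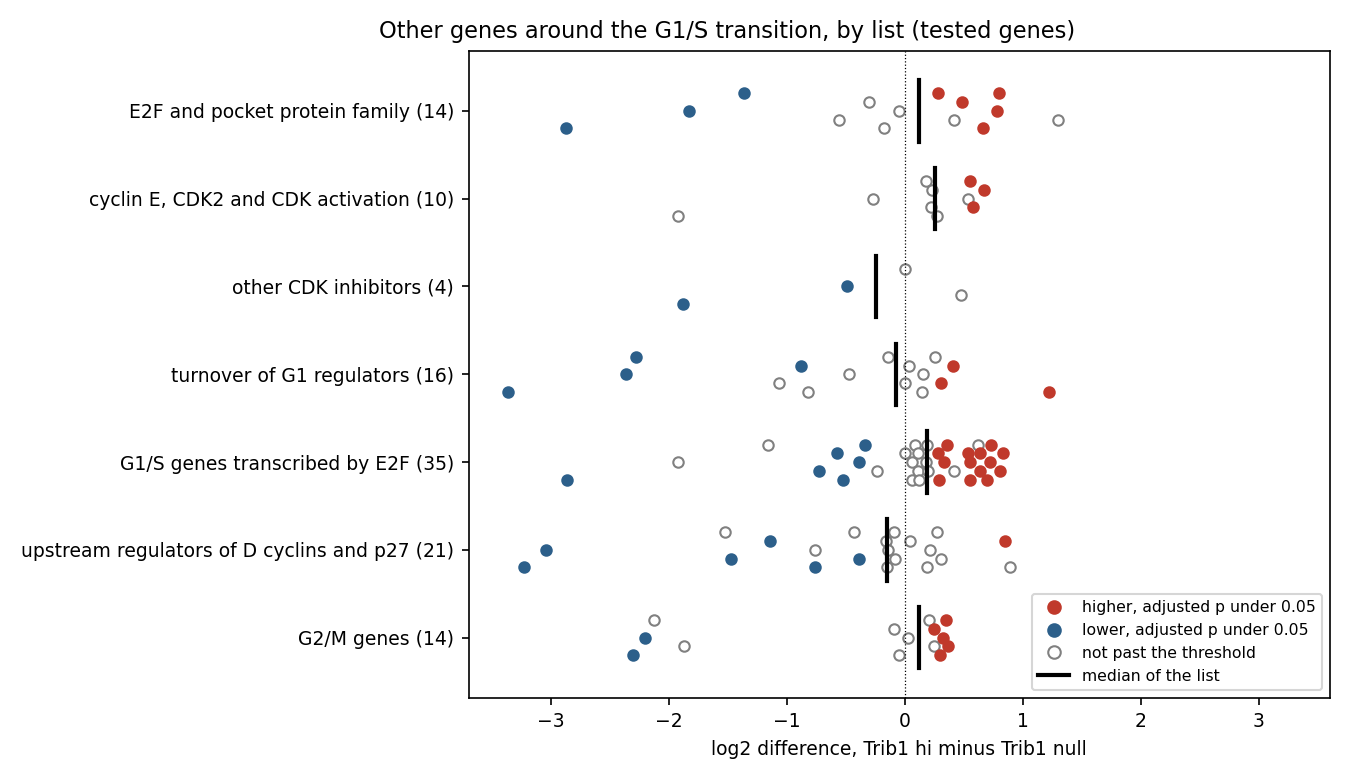
Log2 difference between hi-labelled and null-labelled arrays (horizontal axis) of each tested gene in 7 lists around the G1/S transition, with the number of tested genes in brackets; red and blue points passed the test and bars are list medians. The medians run from -0.24 for the other CDK inhibitors to 0.25 for cyclin E, CDK2 and CDK activation.

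Genes for the turnover of G1 regulators went both ways: of 16 tested, 3 rose and 4 fell (median -0.07). Of all genes tested, 11.1% rose and 19.7% fell. Of the 8 over 500 on all arrays, 2 rose and 0 fell (median 0.15), beside 25.9% and 25.8% of all genes at that level. The 4 that fell thus each had arrays below 500. Both without Trib1 hi 3 and after quantile normalization, 6 of the 16 rose and 4 fell. These settings called more of all genes too, as given above. Skp2, the F-box protein that directs p27 to degradation, rose at least 1.86-fold (950.3 ± 165 against 411 ± 102, limma adjusted p = 1.05e-05), which did not pass when its probe sets were averaged (adjusted p = 0.257). Cul1, the scaffold of the same ligase, rose 1.33-fold (adjusted p = 0.00106). Fbxo31, the F-box protein that directs cyclin D1 to degradation after DNA damage, fell at least 1.79-fold (adjusted p = 6.32e-05).

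Of 21 tested upstream regulators of D cyclins and p27, 1 rose and 6 fell (median -0.16), beside 11.1% and 19.7% of all genes tested. Of the 12 over 500 on all arrays, 1 rose and 2 fell (median -0.02), beside 25.9% and 25.8% of all genes at that level. Egr1, an immediate-early transcription factor of the ERK pathway, fell at least 5.22-fold (341 ± 145 against 2669 ± 225, limma adjusted p = 4.66e-15). Notch1, a receptor whose signalling can induce Ccnd3, fell 2.21-fold (1119.8 ± 92.8 against 2476 ± 109, adjusted p = 6.03e-11). Cebpa, which arrests myeloid cell division as it drives maturation, was the gene that rose, by 1.82-fold (adjusted p = 1.62e-07). Without Trib1 hi 3, 4 of the 21 rose and 7 fell, and after quantile normalization 8 rose and 11 fell. Both settings called more of all genes too, as given above.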

How the data were processed

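The authors deposited linear intensity values for 45141 probe sets on 8 arrays, made with MAS5 per the submitters' processing notes; its version and settings: not given in the sources used here. After trimming 2% at each end, array means were 500.1 to 500.2. Symbols came from the platform annotation: 28898 probe sets had 1 symbol and 551 several. Values were tested as log2(intensity + 2.71), the 25th percentile of all values being the pseudocount, after genes with a mean log2 value up to 3.01 (40th percentile of probe sets) were left out, which left 12250. limma 3.58.1 in R 4.3.3 (lmFit, eBayes with trend) was checked on simulated data. Pairs of genes were compared with signals floored at 500. Alternatives were other pseudocounts (1 and 64), no filter, the floor of 500, quantile normalization, averaged probe sets, a replicate block and leaving out each array. Lists without Trib1 hi 3, single probe sets and the settings of list genes were added after the data were seen. So was the set of INK4 and CIP/KIP genes. A fold on this scale understates changes of dim genes. The number of arrays limits the precision. The text names the 10 genes, up to 3 genes of each list (largest log2 differences that passed the test without overlap, a group being over 500 throughout), the 3 tested neighbours on each side of Ccnd3, and 3 genes most like each of the 2 members with the largest difference. Others (Trib1, Hoxa9, Mpo, Elane, Itgam, Cd33, Cpa3, Mcpt8, Hdc, Cdk2, Ccne1, Myc, Cdkn3, Cdkn2b, Cdkn1c and the genes of chromosome 17) were named after their values were seen. Members and lists were chosen with earlier results of these data known.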

Additional observations from a re-analysis of the deposited data

Results flagged for a closer look

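Of 60 groups of 4 arrays (the 10 genes and the named list genes), 5 held an array far from the other 3 by Dixon's test; chance gives about 1 in 20. Ccnd1 read 87.1 on Trib1 hi 3, against 5.07 to 6.49 on the other arrays of its group, and 55.2 on Trib1 null 1, against 4.32 to 5.15. Cdk4 read 6119.8 on Trib1 hi 3, against 8201 to 8567. Cebpa read 5374 on the same array, against 7738 to 8034. Ccne2 read 1407 on Trib1 null 4, against 1209 to 1234. Trib1 hi 3 and Trib1 null 1 had the highest 75th percentiles of signal, 422 and 385.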

How the results depend on the processing

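Of 149 values of the 10 genes under alternatives, 132 kept their side of the threshold and 15 lost the call in the same direction. For 2, of genes called in the main fit, the direction turned (Cdk6 to -0.49 with the mean of probe sets, E2f1 to 0.018 with a floor of 500). Ccnd1 and Rb1, which passed in no setting, are among the 132 although their sign changed in some settings. Ccnd1 went to -0.56 without Trib1 hi 3. Rb1 went to 0.02 without Trib1 hi 3 and to 0.51 with the mean of probe sets. Among other named genes Cdk7 (-0.59) and Tfdp2 (-0.21) turned with the mean of probe sets. That setting gave 725 genes higher and 1317 lower, against 1363 and 2409, and 2 of the 10 genes lower in place of 5; its averages include dim probe sets. Quantile normalization gave 3357 higher and 3352 lower, 50% of calls higher against 36.1%. With 1 array left out, 1153 to 2103 genes were higher and 1964 to 3768 lower, and 0 to 6 pairs passed; the extremes 2103, 3768 and 6 are without Trib1 hi 3, which moved the median log2 difference of all genes from 0.04 to -0.32. With the replicate block, 1284 genes were higher and 2346 lower, and 3 and 5 of the 10 genes. Same-numbered arrays did not deviate together (r from -0.51 to 0.49), and the numbers were not taken as pairs. Signals below 500 limit what Ccnd1, E2f1 and Cdkn2c can show.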

Other observations

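Genes of the later cell cycle were read from a list of 15 G2/M genes. Of 14 tested, 5 rose and 2 fell, with a median log2 difference of 0.11, beside 11.1% and 19.7% of all genes tested. Of the 10 over 500 on all arrays, 5 rose and 0 fell, beside 25.9% and 25.8% of all genes at that level. Without Trib1 hi 3, 7 of the 14 rose and 4 fell, and after quantile normalization 8 rose and 2 fell. Both settings called more of all genes too, as given above. Cdc20, an activator of the anaphase-promoting complex, rose 1.28-fold (3929 ± 331 against 3059 ± 198, limma adjusted p = 0.00278), and the mitotic kinase Aurka rose 1.25-fold (adjusted p = 0.0166), which did not pass when Trib1 hi 1, Trib1 hi 4 or Trib1 null 4 was left out (adjusted p = 0.0637 to 0.0781). Ccnf, a cyclin with an F-box, on chromosome 17, fell at least 1.79-fold (266 ± 224 against 919.7 ± 35.5, adjusted p = 1.91e-05).

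The genes whose log2 signals followed those of 2 inhibitors most closely were found by Pearson correlation over the 8 arrays, which share the difference between the groups and the pattern of Trib1 hi 3. For Cdkn2c they were Gadd45b, a stress-response gene (r = 0.999), Dram1, a p53 target of autophagy (r = 0.999), and Cog6, of the Golgi (r = 0.998). For Cdkn1b they were Ppt2, a lysosomal thioesterase (r = 0.997), Galnt2, a glycosyltransferase (r = 0.997), and Tnrc6b, of the microRNA machinery (r = 0.997). All 6 were lower on every hi-labelled array than on any null-labelled one, Ppt2 at 918 ± 115 against 1695 ± 85.9 and Gadd45b at 684 ± 211 against 1238 ± 31.8.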
